A study of Homo sapiens with 8 samples.

Results

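Retinoid signaling was followed through the transcripts of 9 genes, which encode the cellular retinoic acid binding proteins CRABP1 and CRABP2, the retinoic acid receptors RARA, RARB and RARG, the retinoid X receptor RXRA, the enzyme that makes retinoic acid (ALDH1A2), an enzyme that degrades it (CYP26A1) and a retinal reductase (DHRS3). Every probe that the array design names for these genes was taken, which gave 13 probes of the 50599 on the array. CRABP1, CRABP2, RARA and RARB had 2 probes each and the other genes had 1. The genes were selected on their signals in these same arrays, so all their values are given as a description and without a test.

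FT293 cells are HEK293 human embryonic kidney cells in which a transgene sits at a single Flp recombinase site under a tetracycline-inducible promoter. The study compared 4 such lines, expressing GFP, GFP-HuR, GFP-TIA1 or GFP-TIAR, to ask what sustained expression of the RNA-binding proteins TIA1 and TIAR does to the transcriptome. HuR, which the gene ELAVL1 encodes, is an RNA-binding protein of another family, and GFP alone was the control of the tag. Tetracycline was given to all lines, RNA was collected on day 3, and each line was read on 2 of the 8 one-colour arrays. Each is a stable isogenic line and no uninduced cells were analysed here, so an effect of the expressed protein and a stable difference between lines cannot be told apart. The lines are called GFP, HuR, TIA1 and TIAR from here on, and the arrays of a line carry the replicate numbers 1 and 2 of the labels. For the second TIA1 array the source name reads GFP-TIA2 while its title reads GFP-TIA1, and it was grouped by its title.

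Retinol, or vitamin A, is taken up by cells and oxidized to retinal and then, irreversibly, to retinoic acid. Cellular retinoic acid binding proteins carry retinoic acid through the cytoplasm, CRABP2 towards the receptors in the nucleus and CRABP1 mainly towards degradation, while CYP26 enzymes clear it. In the nucleus, a heterodimer of a retinoic acid receptor and a retinoid X receptor binds response elements made of repeated half-sites and switches its target genes, among which RARB and CYP26A1 are textbook examples.

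The promoters of 4 of these genes are shown because the response element can be read in RARB and CYP26A1, and because CRABP1 and CRABP2 were the genes with the widest spread between lines. They come from RefSeq on GRCh38.p14 and run from 250 bases before a transcript start to 50 bases after it, in the direction of the gene. Letters in capitals are half-sites of the retinoic acid receptors, searched on both strands in the form AGGTCA and in the related forms that read AGTTCA, also GGGTCA, and also GGTTCA.
RARB, chr3:25428013-25428312, plus strand: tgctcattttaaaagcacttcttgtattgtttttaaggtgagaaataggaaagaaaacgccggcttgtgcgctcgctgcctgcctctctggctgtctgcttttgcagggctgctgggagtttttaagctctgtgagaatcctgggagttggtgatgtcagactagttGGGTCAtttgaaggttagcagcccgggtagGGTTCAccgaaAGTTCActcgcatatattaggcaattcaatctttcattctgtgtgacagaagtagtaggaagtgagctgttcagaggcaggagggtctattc
CYP26A1, chr10:93073643-93073942, plus strand: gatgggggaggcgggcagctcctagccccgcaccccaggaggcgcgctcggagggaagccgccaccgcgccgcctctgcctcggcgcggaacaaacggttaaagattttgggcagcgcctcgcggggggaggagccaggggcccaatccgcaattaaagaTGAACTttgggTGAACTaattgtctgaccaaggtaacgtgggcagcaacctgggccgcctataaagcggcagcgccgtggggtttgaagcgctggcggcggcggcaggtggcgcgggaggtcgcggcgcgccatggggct
CRABP2, chr1:156705735-156706034, minus strand: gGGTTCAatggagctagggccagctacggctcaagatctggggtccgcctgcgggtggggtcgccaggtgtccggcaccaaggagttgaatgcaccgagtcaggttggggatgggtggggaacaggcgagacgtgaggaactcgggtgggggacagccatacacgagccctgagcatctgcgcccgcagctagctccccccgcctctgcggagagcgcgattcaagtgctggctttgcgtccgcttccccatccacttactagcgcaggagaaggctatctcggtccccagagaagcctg
CRABP1, chr15:78340103-78340402, plus strand: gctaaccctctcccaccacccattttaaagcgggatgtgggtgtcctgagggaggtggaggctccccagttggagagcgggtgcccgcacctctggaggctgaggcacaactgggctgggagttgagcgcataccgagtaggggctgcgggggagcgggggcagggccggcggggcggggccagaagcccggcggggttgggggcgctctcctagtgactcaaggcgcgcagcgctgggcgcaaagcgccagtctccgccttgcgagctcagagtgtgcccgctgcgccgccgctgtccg

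The RARB window holds a direct repeat of the half-site with 5 bases between its copies, from position -53 to -37 relative to the start. The CYP26A1 window holds the same arrangement on the opposite strand, from position -90 to -74. Its copies read AGTTCA there and appear as TGAACT in the strand printed above. Such a repeat was present in 31 of the 35116 windows of this length in the table (0.0883%) and in 2 of the 19 windows of the 9 genes, which are those of RARB and CYP26A1. A single half-site is common and was found in 38.6% of all windows and in 10 of the 19, that of CRABP2 among them. The CRABP1 window held none of these letters, and direct repeats with 2 bases or 1 base between the copies, present in 0.0399% and 0.131% of all windows, were found in none of the 19. RARB and CYP26A1 have other start sites whose windows hold no repeat. A match describes the letters of a window and does not show that a receptor binds there.

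Signals are given as log2 values relative to the 75th percentile of each array, so 0 is the level at the 75th percentile of its spots. They rank the lines for one probe and do not rank probes against each other. GFP 1 stood apart, with 86.1% of all probes well above background, while the other arrays had 53.3% to 58.6%. The mean local background was 90 intensity units on GFP 1 and 37.4 to 43.5 on the others. The GFP arrays differed by at least 2-fold at 15.8% of the probes that both detected, against 0.455% to 1.45% in the other lines, so comparisons with GFP are also given without GFP 1. Among the markers of blood cells, PTPRC and CD3E were highest on GFP 1, with PTPRC at 1.12 against -4.66 to -3.94 on the other arrays, and CD14 was lowest there, at -1.63 against -1.46 to 0.19. The endothelial marker KDR was at -4.18 on GFP 1 against -8.16 to -7.10, and the hepatocyte marker TTR at -5.26 against -8.15 to -5.65. The other endothelial markers peaked elsewhere, PECAM1 on HuR 2 (-4.19 against -5.97 on GFP 1) and CDH5 on TIA1 2 (-3.58 against -3.61). Of the other hepatocyte markers, APOA1 was highest on GFP 1, at -3.04. ALB was at -3.53 there and at -3.13 to -2.76 in TIA1 and TIAR. The part of these markers in any result was not tested. Of 8 markers of HEK293 cells, 7 were well above background on all arrays, and so were 2 of 4 of blood cells, 1 of 3 of endothelium, 1 of 3 of hepatocytes and 3 of 3 of skeletal muscle. The probe A_23_P161488 for TIAL1, the gene of TIAR, was at 4.87 and 4.98 in the TIAR line and at 1.63 to 2.52 elsewhere, whereas its other probe, A_33_P3293869, was at -4.12 and -3.85 in TIAR and at -4.36 to -3.45 elsewhere. The probes for ELAVL1 and TIA1 were not highest in their own lines, and whether the probes lie within the transgenes is not given in the sources used here.

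CRABP1, which carries retinoic acid in the cytoplasm, was higher in the TIA1 and TIAR lines than in the HuR and GFP lines at both of its probes. At A_33_P3216869 (chr15:78640361-78640420 on hg19, plus strand) the log2 signal was -2.93 and -3.14 in GFP, -3.26 and -3.82 in HuR, -1.34 and -1.37 in TIA1, and -2.01 and -1.93 in TIAR. The lines did not overlap at this probe and stood in the order HuR, GFP, TIAR and TIA1. The difference from HuR was 2.19 ± 0.21 for TIA1 (4.56-fold; limma standard error, 2 arrays per line) and 1.57 ± 0.21 for TIAR (2.98-fold).

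At A_33_P3326483 (chr15:78640508-78640567, plus strand) the log2 signal was -3.57 and -7.40 in GFP, -5.81 and -5.68 in HuR, -0.75 and -0.21 in TIA1, and -1.10 and -1.42 in TIAR. This probe lies downstream of the first one, and it had the widest range of line means of the 13 probes, 5.27 against 0.16 to 2.19 at the others. Only GFP 1 and HuR 2 were well above background in their lines, and the 2 GFP arrays lay on either side of both HuR arrays. As processed intensities, the values were 137 and 7.94 in GFP, 27.9 and 32.5 in HuR, 766 and 1040 in TIA1, and 650 and 488 in TIAR. TIA1 exceeded HuR by 5.27 ± 0.21 (38.5-fold) and TIAR exceeded HuR by 4.48 ± 0.15 (22.4-fold). The probe entered the comparisons with HuR and with GFP through the TIA lines alone, so these measured differences are not exact sizes. The size moved with the processing. With normexp background correction the 2 differences were 3.54 and 2.83, and in the quantile-normalized values of the authors 3.14 and 2.46, where the TIAR arrays were normalized apart from the others. In bulk RNA, more cells that express a gene and more of its RNA in each cell cannot be told apart.

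CRABP2, which hands retinoic acid to its nuclear receptors, was lowest in the HuR line and highest in the TIAR line at A_23_P115064 (chr1:156669579-156669638, minus strand). The log2 signal was 2.11 and 2.33 in GFP, 1.08 and 1.09 in HuR, 2.15 and 2.71 in TIA1, and 3.06 and 3.02 in TIAR. GFP and TIA1 overlapped, while HuR lay below and TIAR above all other arrays. TIA1 exceeded HuR by 1.35 ± 0.21 (2.54-fold), TIAR exceeded HuR by 1.96 ± 0.09 (3.89-fold) and TIAR exceeded TIA1 by 0.61 ± 0.22 (1.53-fold).

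The other CRABP2 probe, A_33_P3294826 (chr1:156675546-156675605, minus strand), lies nearer the 5′ end and is listed for another transcript. Its log2 signal was -2.97 and -3.30 in GFP, -2.79 and -3.26 in HuR, -2.96 and -3.05 in TIA1, and -3.12 and -3.20 in TIAR. Every pair of lines overlapped except TIA1 and TIAR, and the line means spanned 0.16. The 2 CRABP2 probes differed in what they showed. TIA1 minus HuR was 0.02 ± 0.19 at this probe against 1.35 ± 0.21 at the other, and TIAR minus HuR was -0.14 ± 0.19 against 1.96 ± 0.09.

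**Figure D1:**
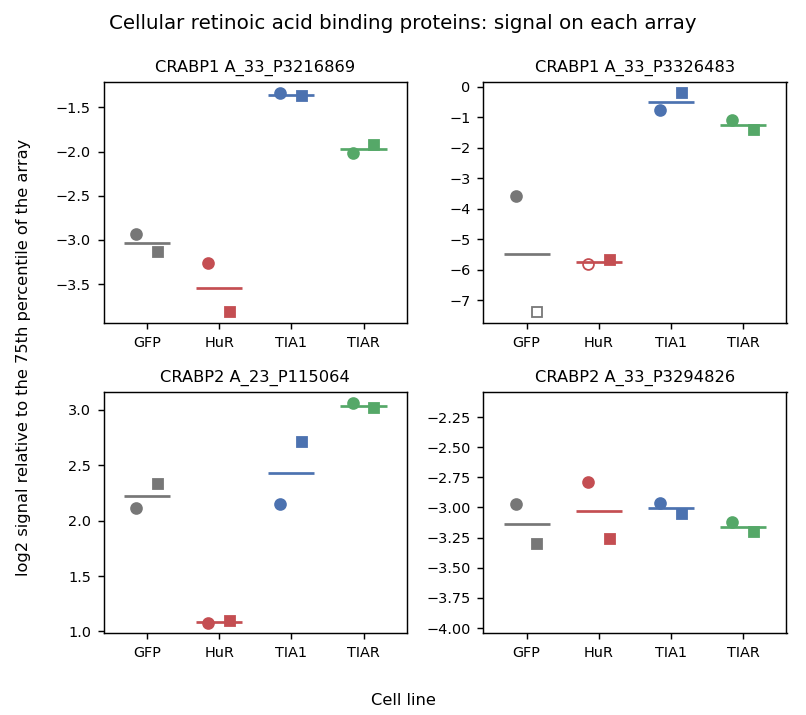
Log2 signal of the CRABP1 and CRABP2 probes relative to the 75th percentile of the array (y axis) in the 4 cell lines (x axis). Circles are replicate 1, squares replicate 2, open symbols were not well above background and bars are line means. TIA1 and TIAR lie above HuR in 3 panels, while at A_33_P3294826 the line means span 0.16.

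The enzymes that set the amount of retinoic acid did not share one pattern. ALDH1A2, also called RALDH2, oxidizes retinal to retinoic acid. Its log2 signal was -0.32 and -0.32 in GFP, 0.38 and 0.50 in HuR, -0.95 and -0.46 in TIA1, and 0.11 and -0.89 in TIAR. HuR lay above all other arrays and TIA1 below both GFP arrays, whereas the TIAR arrays lay 1.00 apart and spanned both. TIA1 was below HuR by a log2 difference of -1.15 ± 0.19 and TIAR by -0.83 ± 0.36.

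CYP26A1 hydroxylates retinoic acid and so starts its removal. Its log2 signal was 0.38 and 0.71 in GFP, -1.06 and -1.02 in HuR, -0.10 and -0.08 in TIA1, and -0.75 and -0.72 in TIAR. No lines overlapped, and the order was HuR, TIAR, TIA1 and GFP. The differences from HuR were 0.95 ± 0.09 for TIA1 and 0.31 ± 0.09 for TIAR, and the difference of HuR from GFP was -1.58 ± 0.19. It was one of 2 probes at which GFP had the highest mean.

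DHRS3 reduces retinal back to retinol. Its log2 signal was 2.79 and 3.0 in GFP, 3.19 and 3.22 in HuR, 3.06 and 3.11 in TIA1, and 3.20 and 3.32 in TIAR. HuR and TIAR overlapped and the line means spanned 0.36, the second narrowest range of the 13 probes.

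The receptor genes RARA and RARB were lower in HuR than in TIA1 and TIAR at all 4 of their probes. RARA, the retinoic acid receptor alpha, was measured at A_32_P5251 (chr17:38512928-38512987, plus strand), where the log2 signal was 0.70 and 1.05 in GFP, -0.18 and -0.33 in HuR, 1.62 and 1.23 in TIA1, and 1.33 and 1.32 in TIAR. HuR lay below all other arrays, and TIA1 and TIAR overlapped. TIA1 exceeded HuR by 1.68 ± 0.17 (3.21-fold) and TIAR by 1.57 ± 0.10 (2.98-fold).

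At the other RARA probe, A_23_P207842 (chr17:38513174-38513233, plus strand), the log2 signal was -1.07 and -1.59 in GFP, -2.26 and -2.27 in HuR, -1.70 and -1.54 in TIA1, and -1.84 and -1.84 in TIAR. HuR was again below all other arrays, but GFP rather than TIA1 had the highest mean. TIA1 exceeded HuR by 0.65 ± 0.10 and TIAR by 0.42 ± 0.09, so the probes had the same sign and differed in size.

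RARB, the retinoic acid receptor beta whose promoter carries the repeat shown above, was measured at A_24_P3249 (chr3:25638622-25638681, plus strand) and A_33_P3305749 (chr3:25636109-25636168, plus strand). At A_24_P3249 the log2 signal was -1.92 and -3.50 in GFP, -3.05 and -3.14 in HuR, -1.63 and -2.17 in TIA1, and -1.65 and -1.76 in TIAR. At A_33_P3305749 it was -3.83 and -4.31 in GFP, -3.45 and -3.50 in HuR, -2.52 and -2.62 in TIA1, and -2.74 and -2.19 in TIAR. TIA1 and TIAR overlapped at both probes and lay above HuR at both. The GFP arrays lay on either side of HuR at the first probe and below HuR at the second. TIA1 exceeded HuR by 1.20 ± 0.21 and 0.91 ± 0.10, and TIAR exceeded HuR by 1.39 ± 0.10 and 1.01 ± 0.21. Both probes lie at the 3′ part of the gene, and which of its start sites was in use is not resolved by them.

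RARG, the retinoic acid receptor gamma, had a log2 signal of -0.44 and 0.03 in GFP, -0.39 and -0.56 in HuR, 0.43 and 0.50 in TIA1, and 0.06 and 0.18 in TIAR. GFP and HuR overlapped, and TIA1 lay above all other arrays. TIA1 exceeded HuR by 0.93 ± 0.11 and TIAR by 0.59 ± 0.11.

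RXRA, the common partner of these receptors, had a log2 signal of 0.45 and 1.61 in GFP, 2.07 and 2.04 in HuR, 1.51 and 2.08 in TIA1, and 1.86 and 1.94 in TIAR. TIA1 overlapped with every other line, and TIA1 minus HuR was -0.26 ± 0.21 and TIAR minus HuR -0.16 ± 0.10. The 2 GFP arrays were 1.16 apart, with GFP 1 the lowest of all arrays.

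**Figure D2:**
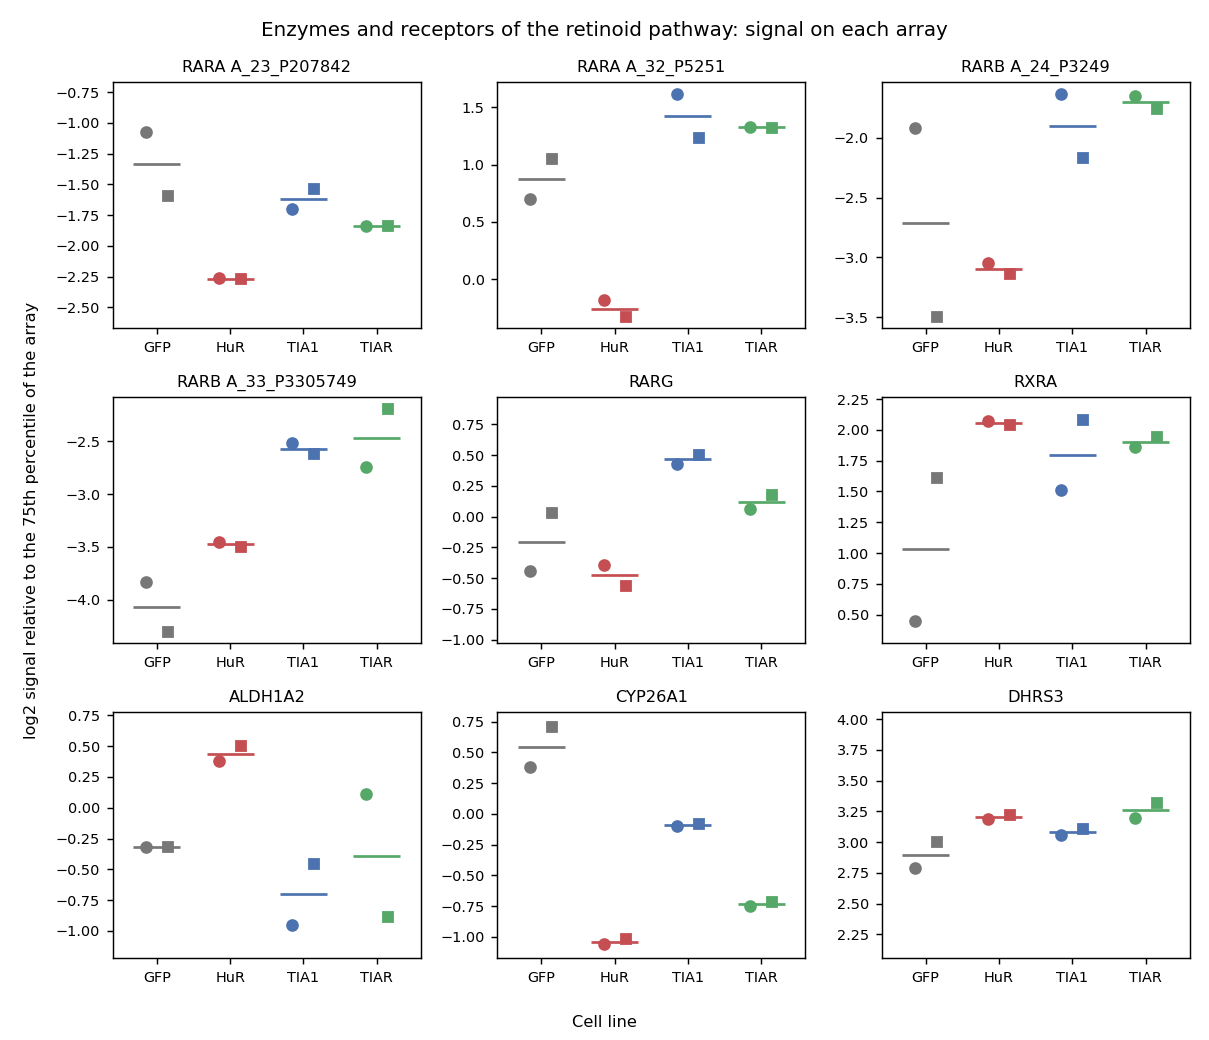
Log2 signal of the receptor and enzyme probes relative to the 75th percentile of the array (y axis) in the 4 cell lines (x axis), drawn as in the plot of the binding proteins, with circles for replicate 1, squares for replicate 2 and bars for line means. HuR is below all other arrays at both RARA probes and at CYP26A1, and above them at ALDH1A2.

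Against HuR, 6 of the 13 probes were past a fold change of 2 with an adjusted p under 0.05 in TIA1, where limma called 13.4% of all 28745 probes tested, and 6 of 13 in TIAR, where it called 10.1% of 29102. Since the genes were selected on these signals, nothing is read from these counts. In TIA1 they were both CRABP1 probes, CRABP2 A_23_P115064, RARA A_32_P5251 and RARB A_24_P3249, which were higher, and ALDH1A2, which was lower. In TIAR they were both CRABP1 probes, both RARB probes, CRABP2 A_23_P115064 and RARA A_32_P5251, all higher. CRABP1 A_33_P3326483 dropped out with a filter on all 4 arrays. The counts were then 5 of 12 in TIA1 and 5 of 12 in TIAR, beside 11.4% and 8.19% of all probes. The median log2 difference of the 13 probes was 0.93 in TIA1 and 0.59 in TIAR, beside 0.08 and 0.05 over all probes tested. Both comparisons use the same HuR arrays. Without HuR 1 the counts were 3 in TIA1, where 8.60% of all probes were then called, and 0 in TIAR, where 0% were. Without HuR 2 they were 2 in each, beside 8.46% and 2.07%. The differences of TIAR from HuR stayed near those given above without HuR 1, at 4.42 for CRABP1 A_33_P3326483 and 1.95 for CRABP2 A_23_P115064, and the counts are read no further. Under the authors' values the TIAR count was 3, beside 4.33% of all probes. At CRABP1 A_33_P3216869 the difference of TIA1 from HuR was 2.47 without HuR 1 and 1.91 without HuR 2. At CRABP1 A_33_P3326483 it was 5.2 and 5.33. Of all calls, 63.4% were higher in TIA1 and 70.2% in TIAR, and 52.9% and 56.2% after quantile normalization.

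Against GFP, no probe of the 13 and no probe on the array was past the threshold, which makes 0% of 28055 probes for TIA1, 0% of 28621 for TIAR and 0% of 28882 for HuR by limma. At an unadjusted p under 0.05, the counts were 4 of 13 probes in TIA1, 5 of 13 in TIAR and 5 of 12 in HuR, beside 21.7%, 16.4% and 17.2% of all probes. CRABP1 A_33_P3326483 was not tested between HuR and GFP, since neither line had it above background on both arrays. Without GFP 1, with the other 7 arrays in 1 fit, an alternative added after the data were seen, the counts past the threshold were 4 in TIA1, 5 in TIAR and 3 in HuR, beside 12.4%, 10.1% and 6.25% of all probes. The 4 in TIA1 were both CRABP1 and both RARB probes, all higher than in GFP, and in TIAR CYP26A1 joined them as lower. The 3 in HuR were CRABP2 A_23_P115064, CYP26A1 and RARA A_32_P5251, all lower than in GFP. With all arrays, CRABP1 A_33_P3216869 exceeded GFP by 1.68 ± 0.20 in TIA1 and 1.06 ± 0.20 in TIAR, and CRABP2 A_23_P115064 in HuR differed from GFP by -1.14 ± 0.17. The sign of HuR minus GFP for CRABP1 A_33_P3216869 was not stable, at -0.51 ± 0.27 by the 75th percentile and 0.73 after quantile normalization. That normalization moved the median difference of all probes from 0.01 to 0.24 in TIA1, from -0.02 to 0.21 in TIAR and from -0.04 to 0.22 in HuR.

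Between TIAR and TIA1, 0 of the 13 probes were past the threshold, where limma called 2.35% of 28068, and 5 had an unadjusted p under 0.05, beside 23.8% of all probes. The 13 differences lay between -0.78 ± 0.23 at CRABP1 A_33_P3326483 and 0.61 ± 0.22 at CRABP2 A_23_P115064. CRABP1 was thus higher in TIA1 at both probes and CRABP2 higher in TIAR at A_23_P115064. At the other CRABP2 probe, A_33_P3294826, TIAR minus TIA1 was -0.16 ± 0.11, the direction of CRABP1.

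**Figure D3:**
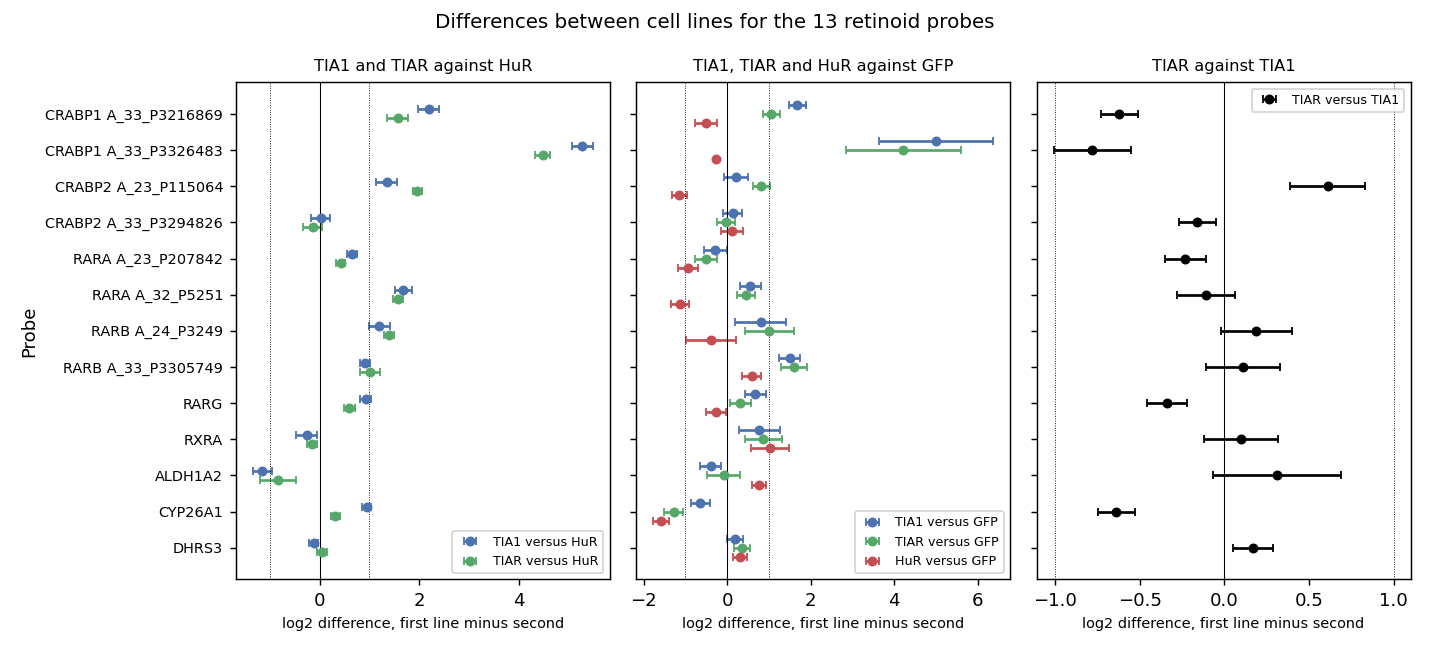
Difference of the log2 signal between lines (x axis, first line minus second) for the 13 probes (y axis), against HuR on the left, against GFP in the middle and TIAR against TIA1 on the right. Points are differences of the means of 2 arrays, bars are limma standard errors, and dotted lines mark a fold change of 2. CRABP1 A_33_P3326483 has no bar for HuR against GFP, where it was not tested, and the bars against GFP are wider at this probe, 1.37 and 1.38, than against HuR.

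HuR had the lowest mean at 8 of the 13 probes, beside 32.6% of the 29581 probes detected in at least 1 line, and lay below all other arrays at 5 of them, beside 15.5%. TIA1 had the highest mean at 5 of the 13 and TIAR at 4, beside 27% and 17.6% of all probes. GFP was between HuR and both TIA lines at 6 probes, those of CRABP1, CRABP2 A_23_P115064, RARA A_32_P5251, RARB A_24_P3249 and RARG, though its arrays overlapped with HuR at 3 of these.

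To see the rest of the pathway, 70 further genes of retinoid uptake, metabolism, receptors, coregulators and retinoic acid response were read from the same fits, with 1 probe per gene. This list was drawn up with earlier results of these data known, which had named DHRS4, FOXA2, NR2F1 and CEBPE, so its counts are a description and no independent evidence. Of 48 tested, 6 rose in TIA1 against HuR and 3 fell, beside 8.46% and 4.74% of all gene names. In TIAR 7 of 48 rose and 0 fell, beside 7.41% and 2.83%. Between TIAR and TIA1, 4 of 47 were higher and 1 lower, beside 1.35% and 1.03%. At an unadjusted p under 0.05 by limma, 20 were higher and 5 lower than in HuR in TIA1. In TIAR 20 were higher and 4 lower at that cut. Over all probes, in either direction, 52.4% passed it in TIA1 and 45.4% in TIAR. The median log2 difference of the tested genes was 0.27 in TIA1 and 0.25 in TIAR, and 0.08 and 0.06 over all gene names. With only probes well above background on all 4 arrays, 6 genes were called in TIA1, 5 in TIAR and 2 between the TIA lines. For TIAR, 0 genes were called without HuR 1 and 3 without HuR 2, where 0% and 2.07% of all probes were called, against 10.1% with all arrays.

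Among the carriers, 3 of 6 tested rose in TIAR against HuR, beside 7.41% of all gene names, and 1 of 6 fell in TIA1, beside 4.74%. The roles are parts of a list drawn up with earlier results of these data known. RBP4, the carrier of retinol in blood, was at -4.40 and -4.86 in GFP, -4.02 and -3.95 in HuR, -5.95 and -7.13 in TIA1, and -2.80 and -2.76 in TIAR. It rose by 1.20 ± 0.09 in TIAR (limma adjusted p = 0.0058). In TIA1 both arrays were short of well above background, and its level there was at least 2.84-fold lower than in HuR. The call in TIA1 was lost with normexp, with normexp and quantile normalization and in the authors' values. It was also lost with no filter, with a filter on all 4 arrays and without either HuR array. The call in TIAR was lost in the first 3 of these, with quantile normalization alone, with all 8 arrays in 1 fit and without either HuR array. STRA6, the membrane receptor that takes up retinol from RBP4, rose by 1.37 ± 0.09 in TIAR (adjusted p = 0.005), with -3.13 and -3.07 against -4.46 and -4.48 in HuR, -3.99 and -3.87 in TIA1, and -3.57 and -2.75 in GFP. Its call was lost with normexp, with normexp and quantile normalization, in the authors' values and without either HuR array. RBP7, a cellular retinol binding protein, rose by 1.13 ± 0.11 in TIAR (adjusted p = 0.0075), with 1.15 and 1.30 against 0.14 and 0.05 in HuR, 0.19 and 0.23 in TIA1, and 0.51 and 0.57 in GFP, and its call was lost without either HuR array.

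Of 12 genes of retinol and retinal metabolism, AKR1B10 rose in both TIA lines and DHRS4 fell in TIA1. Over all gene names, 8.46% rose in TIA1, 7.41% rose in TIAR and 4.74% fell in TIA1. AKR1B10, an aldo-keto reductase that reduces retinal, was at -3.99 and -5.16 in GFP, -4.05 and -4.41 in HuR, -2.29 and -2.43 in TIA1, and -2.76 and -2.49 in TIAR. The rise was 1.87 ± 0.16 in TIA1 (limma adjusted p = 0.0037) and 1.61 ± 0.18 in TIAR (limma adjusted p = 0.0093). Another AKR1B10 probe had 1.82 in TIA1 and 0.94 in TIAR, the latter short of a fold change of 2. The call in TIAR was lost with normexp and quantile normalization, in the authors' values, with all 8 arrays in 1 fit and without either HuR array. DHRS4, a reductase of retinal, was at 1.78 and 2.17 in GFP, 2.26 and 2.33 in HuR, 0.81 and 0.74 in TIA1, and 1.40 and 1.30 in TIAR. It fell by 1.52 on the log2 scale in TIA1 (SE 0.09, limma adjusted p = 0.0026). In TIAR its difference of -0.95 ± 0.10 was short of a fold change of 2 at this probe. The other DHRS4 probes were also lower than in HuR in both lines, and past a fold change of 2 in TIA1. In TIAR another probe was past that fold change and a further probe was short of it. DHRS4 was called lower in TIAR with normexp, and with normexp and quantile normalization. Neither of the other retinoic acid synthases, ALDH1A1 and ALDH1A3, passed the threshold in either line. The differences in TIA1 were -0.31 ± 0.28 and 0.71 ± 0.10.

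Of 21 retinoic acid response genes tested, 4 rose and 1 fell in TIA1, beside 8.46% and 4.74% of all gene names. In TIAR 3 rose, beside 7.41%. FOXA2, a forkhead transcription factor of endoderm, was at -0.55 and -0.42 in GFP, -2.91 and -3.04 in HuR, -0.13 and -0.47 in TIA1, and -0.09 and 0.42 in TIAR. It rose against HuR by 2.67 ± 0.15 in TIA1 (adjusted p = 0.0024) and by 3.13 ± 0.20 in TIAR (adjusted p = 0.0047), while the GFP arrays lay beside those of the TIA lines. The call in TIAR was lost without HuR 1. PCK1, the cytosolic phosphoenolpyruvate carboxykinase of gluconeogenesis, was not well above background in HuR, and its level was at least 2.7-fold higher in TIA1 and at least 1.94-fold higher in TIAR. It entered these comparisons through the TIA lines alone. Its calls were lost in both lines with normexp, with normexp and quantile normalization, in the authors' values and with a filter on all 4 arrays. The call in TIAR was also lost without either HuR array.

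HOXB1, a homeobox gene of the hindbrain, was well above background in TIAR only, at -5.30 and -5.08, which was at least 1.77-fold over HuR. It entered that comparison through TIAR alone. Its call was lost with normexp and quantile normalization, in the authors' values, with a filter on all 4 arrays and without HuR 1. NR2F1, an orphan nuclear receptor also called COUP-TFI, was at 2.09 and 2.90 in GFP, 2.43 and 2.28 in HuR, 3.93 and 4.04 in TIA1, and 3.14 and 3.15 in TIAR, and rose by 1.63 ± 0.11 in TIA1 (adjusted p = 0.0028).

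CEBPE, a transcription factor of granulocytes, stood apart in TIA1. Its log2 signal was 5.73 and 6.05 in GFP, 6.57 and 6.47 in HuR, -4.92 and -5.41 in TIA1, and 5.84 and 6.11 in TIAR. It fell in TIA1 against HuR (adjusted p = 0.0012). Only TIA1 1 was well above background in its line, so the measured difference of -11.69 is not an exact size, and the gene dropped out where all 4 arrays had to detect it. Its difference in TIAR was -0.55 ± 0.13. Of the 6 coregulators, 1 rose in TIA1, beside 8.46% of all gene names. NRIP1, a corepressor of nuclear receptors also called RIP140, rose there by 1.60 ± 0.13 (limma adjusted p = 0.0034). It was at -0.94 and -0.46 in GFP, -0.61 and -0.52 in HuR, 1.16 and 0.91 in TIA1, and -0.52 and -0.11 in TIAR. The receptor RXRB did not pass in either comparison, at 0.03 ± 0.09 in TIA1 and -0.26 ± 0.10 in TIAR.

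**Figure D4:**
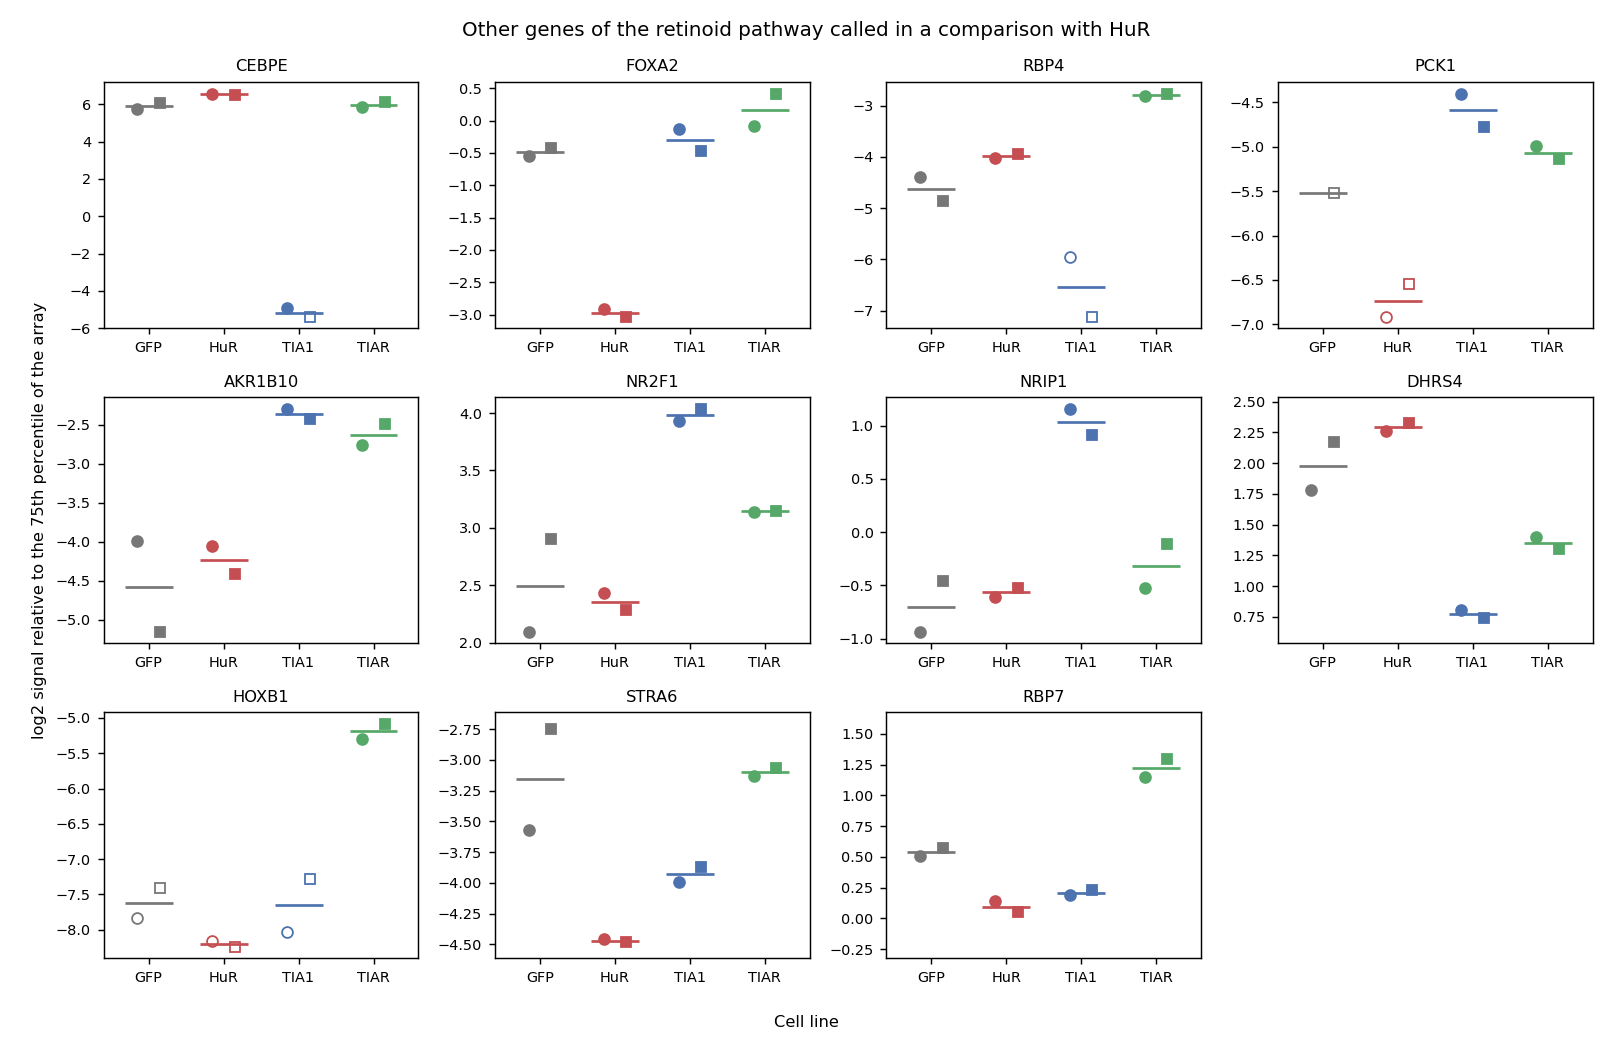
Log2 signal relative to the 75th percentile of the array (y axis) in the 4 lines (x axis) for the other genes of the pathway with the largest called differences against HuR, at most 8 each for TIA1 and TIAR. Circles are replicate 1, squares replicate 2, open symbols were not well above background and bars are line means. CEBPE stands at -4.92 and -5.41 in TIA1 and above 5.7 elsewhere, and RBP4 is highest in TIAR and lowest in TIA1.

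The probes whose signal ran most like that of CRABP1 A_33_P3216869 and CRABP2 A_23_P115064 over the 8 arrays, the probe of each gene with the higher mean log2 signal, were taken from 22210 probes of other named genes. For CRABP1 they were PLCL1 (Pearson's r = 0.992), SNORD43, CDCA8, ANKRD12 and SLC20A2 (0.987 for each). For CRABP2 they were SMOC1 (0.99), FAM113A (0.982), PROCA1 and CPT1C (0.978 for each), and HIST1H2AE (0.977). With 4 lines of 2 arrays, a high r chiefly says that the line means stand in a like pattern, and 195 probes exceeded 0.95 for CRABP1 and 51 for CRABP2. SMOC1, which encodes a secreted matricellular protein, had means of -1.05 in HuR, 0.15 in GFP, 0.28 in TIA1 and 0.76 in TIAR, the order of CRABP2.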

How the data were processed

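The RNA of 4 FT293 lines was hybridized to 8 one-colour Agilent arrays, 2 per line, which were read with Feature Extraction 10.7.3.1. The deposited processed signal is an intensity from which this software had subtracted background and a spatial trend, array by array. The table for the series holds log2 values that the authors deposited after quantile normalization, and the submitters' notes name limma. Here processed signals were log2-transformed, the 75th percentile of the array was subtracted, spots flagged as outliers were dropped and replicate spots were averaged. Positions of probes come from the array design and refer to hg19 (GRCh37), and promoters are from RefSeq on GRCh38.p14. All 9 genes were found among the promoters.

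A probe entered a comparison when both arrays of either line had it well above background. Each comparison used its own 4 arrays in limma 3.58.1 (lmFit, then eBayes; R 4.3.3), p-values were adjusted by Benjamini-Hochberg over all fitted probes, and a call needed a 2-fold difference with an adjusted p under 0.05. For a bound ("at least"), the dim line was set, array by array, to its own value or to the dimmest detected probe, whichever was higher. On simulated data with 200 changed probes the fit recovered 113 (TIA1 against HuR), 133 (TIAR against HuR) and 124 (TIAR against TIA1), with 5, 0 and 5 false calls. Files were handled with the R package data.table (version 1.17.8), and matplotlib 3.10.9 made the plots. No per-sample column was left unused.

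The 9 genes, the wider list and the tests were chosen with earlier results of these data known. DHRS4, FOXA2, NR2F1 and CEBPE were named in those results. One called gene of the wider list is counted but not reported here. Named are the 9 genes, the called genes of the wider list with the largest change (at most 8 per comparison with HuR), the 5 nearest patterns of CRABP1 and CRABP2, and the genes of the expressed proteins. The labels describe the replicates as independent, and precision is limited by having 2 arrays per line. All arrays were hybridized on 1 slide. Arrays with the same replicate number deviated from their line means with correlations of -0.09 to 0.18 between lines, so the main fits did not pair them. The replicate block and the methods' paired t-test did use the numbers. That t-test was counted at p under 0.05 without a fold cut. The study itself called microarray genes by limma, at a false discovery rate under 0.05 and a 2-fold change. Alternatives were normexp background correction (offset 50), quantile normalization, both, the authors' log2 values, no filter, a filter on all 4 arrays, all 8 arrays in 1 fit, the replicate block, leaving out each array and the methods' t-test.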

Additional observations from a re-analysis of the deposited data

Results flagged for a closer look

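For 5 genes of the wider list the direct comparison of TIAR with TIA1 in limma passed the threshold, 4 of 47 higher and 1 lower, beside 1.35% and 1.03% of all gene names. All 5 calls were lost with the replicate block, although the numbers are not known to pair the arrays, and with no filter on dim probes. CEBPE was higher in TIAR (adjusted p = 0.0042), and its measured log2 difference of 11.14 is not an exact size, since only 1 TIA1 array was well above background. RBP7 was higher by 1.02 ± 0.12 (adjusted p = 0.035). RBP4 was at least 6.54-fold higher in TIAR and HOXB1 at least 1.23-fold, and both entered the comparison through TIAR alone. With a filter on all 4 arrays, 2 of the 5 calls stood, RBP7 and NRIP1. NRIP1 was lower in TIAR, with a log2 difference of -1.35 ± 0.19 (adjusted p = 0.045), and another NRIP1 probe had -1.30. Without 1 of the 4 arrays, between 0 and 2 of the 5 calls remained, CEBPE and RBP4 without TIA1 1, CEBPE without TIA1 2 and 0 without either TIAR array.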

How the results depend on the processing

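Of the 702 fold changes of the 13 probes listed under alternatives, 43 changed sign, none of a called probe. Those of the replicate block are among the 702 and equal the main values by construction. The counts of the 13 probes past the threshold were, for TIA1 against HuR, 6, and 3 with no filter, beside 13.4% and 7.12% of all probes. For TIAR against HuR they were 6, beside 10.1% of all probes. They were 3 in the authors' values and 3 with all 8 arrays in 1 fit, beside 4.33% and 6.3%. The share of all probes called also moved when 1 array was left out, so nothing is read from the counts. Against GFP they were 0 in each line and, with all 8 arrays, 3 in each, beside 9.09%, 5.99% and 4.00% of all probes in TIA1, TIAR and HuR. Leaving out 1 array gave 2 to 6 for TIA1 against HuR, 0 to 7 for TIAR against HuR, 0 to 4 for TIA1 against GFP, 0 to 4 for TIAR against GFP and 0 to 6 for HuR against GFP. Without GFP 2, 45.0%, 41.6% and 47.2% of all probes were called in TIA1, TIAR and HuR against GFP, and without GFP 1 11.4%, 6.39% and 8.53%. Without GFP 1, the other 7 arrays in 1 fit gave 4, 5 and 3. The methods' t-test gave, unadjusted, 5 for TIA1 and 6 for TIAR against HuR, beside 21.4% and 17% of all probes. Against GFP it gave 1 for TIA1 and 0 for TIAR, beside 8.07% and 7.21%, and 1 for HuR. It gave 3 for TIAR against TIA1. Nothing is read from these counts. After Benjamini-Hochberg adjustment the t-test gave 0 in both comparisons with HuR, where 0% of all probes passed. That 0 therefore says nothing particular about the 13 probes, nor about the wider list in these comparisons. Unlike the other counts, those of the t-test had no fold cut, here and for the wider list below.

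Of the wider list, the 9 genes of TIA1 against HuR became 15 by the methods' t-test unadjusted and 0 adjusted, and 8 to 10 without 1 array. The 7 of TIAR against HuR became 3 with normexp and quantile normalization, 2 in the authors' values and 0 by the adjusted t-test, and 0 to 7 without 1 array. The 5 of TIAR against TIA1 became 3 with normexp, 3 in the authors' values, 0 with no filter, 2 with a filter on all 4 arrays, 10 and 0 by the t-test, and 0 to 2 without 1 array. With the replicate block they became 0, and the block kept the other counts within 1.5 times. The cause of these shifts was not tested. A filter or the all-array fit leaves a fold change as it is, so these were not recomputed.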
